A study of Mus musculus with 5 samples.

Results

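The genes described here encode the enzymes and carriers that oxidise fatty acids in mitochondria and peroxisomes. They were chosen by name: 39 symbols were looked up in the deposited table, and 38 had a row out of 12446 listed genes. The remaining symbol, Dci, is an older name of Eci1, which was among the 38. Of these, 29 belong to the mitochondrial pathway or act directly on it, and 9 are peroxisomal. The study delivered reprogramming factors to the hearts of male C57BL/6 mice and sequenced RNA of the isolated cardiomyocytes (CMs), with 3 libraries of OSKM-CMs and 2 of Control-CMs. OSKM-CMs came from mice injected into the thoracic cavity with AAV9 vectors for the 4 factors, each carrying 1 tagged factor. For Oct4 the vector was AAV-cTnT-Oct4-His6 and for Sox2 it was AAV-cTnT-Sox2-Flag. Klf4 was delivered by AAV-cTnT-Klf4-HA, while Myc came from AAV-cTnT-Myc-V5. Control-CMs came from mice that received AAV-cTnT-BFP, a blue fluorescent protein vector, at the summed titre of the factor vectors. In all vectors cTnT denotes the cardiac troponin T promoter, so expression was directed to cardiomyocytes and non-muscle cells of the heart were not the target. Injection was at 8 weeks of age, and the mice of both groups are listed as 12 to 14 weeks old. The labels do not say whether a library is 1 mouse or a pool, so the p-values measure the spread between these libraries, which may be technical.

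Fatty acids are the main fuel of the adult heart. Acyl-CoA enters mitochondria through the carnitine shuttle and is shortened by cycles of dehydrogenation, hydration, a second dehydrogenation and thiolysis, with electrons passed to the respiratory chain through the electron transfer flavoprotein. Peroxisomes run a parallel cycle with their own enzymes, start on very long and branched chains, and hand shortened products to mitochondria. Many genes of both routes are known targets of the nuclear receptors PPAR and ERR, which bind DNA sites built on AGGTCA.

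Libraries held 2691796 to 3861805 reads over the listed genes. Transcripts of the delivered factors separated the groups as labelled: Pou5f1, which encodes Oct4, had 262 to 344 reads per OSKM library and 0 in both controls. Reads of mitochondrially encoded genes took 9.76% to 11.1% of OSKM libraries and 21.2% to 24.7% of controls. Levels are given as RPKM (reads scaled to gene length and to the listed reads of the library) divided by a scaling factor for library composition, called scaled RPKM. Log2 fold changes were computed on scaled RPKM plus 1, which understates changes of genes with low values. Across all 10915 tested genes, 30.2% changed at an adjusted p below 0.05 (limma, Benjamini-Hochberg), 15.9% higher and 14.3% lower in OSKM-CMs, and the median log2 fold change was 0.02. In bulk RNA, fewer cells of a type and less RNA per cell cannot be told apart.

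Promoter sequence was at hand for 30 of the 38 genes (RefSeq, build GRCm38.p6, 250 bases before to 50 after the start site). Hadha and Hadhb, the alpha and beta subunits of the mitochondrial trifunctional protein, are transcribed away from each other from start sites 273 bases apart, and their windows overlapped by 228 bases. The Hadhb upstream window, which holds most of the bases between these start sites, is shown because both genes fell. It lies at chr5:30155003-30155252 on the plus strand, and capitals mark GGGCGG, the GC box bound by Sp1, which occurred 2 times.

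Hadhb upstream window: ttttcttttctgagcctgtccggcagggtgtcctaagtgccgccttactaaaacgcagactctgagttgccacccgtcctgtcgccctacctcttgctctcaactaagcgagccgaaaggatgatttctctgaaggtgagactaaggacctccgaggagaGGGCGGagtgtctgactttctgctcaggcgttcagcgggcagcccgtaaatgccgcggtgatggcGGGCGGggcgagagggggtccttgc

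The core motif AGGTCA, searched on both strands, was found in the windows of 7 of the 30 genes (23.3%), against 16.3% of all 32851 windows. The sites upstream of the start are shown with up to 12 bases on either side, the motif in capitals, each on the strand that reads AGGTCA. They belong to genes of different response: Echs1, Acadvl, Acadm and Scp2 fell, Cpt1a rose and Ucp3 did not pass.

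Echs1 (chr7:140116487-140116516, minus strand, 83 bases before the start): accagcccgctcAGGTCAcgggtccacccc
Acadvl (chr11:70015498-70015527, minus strand, 87 bases before the start): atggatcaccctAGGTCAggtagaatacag
Acadm (chr3:153944875-153944893, plus strand, 244 bases before the start): accggagcccgaAGGTCAc
Scp2 (chr4:108118639-108118668, minus strand, 109 bases before the start): gtctaacacagtAGGTCAaaagaacccata
Cpt1a (chr19:3323195-3323224, minus strand, 89 bases before the start): gctgcggggaggAGGTCAgtaaggaaactg
Ucp3 (chr7:100472830-100472859, plus strand, 149 bases before the start): ttaaagagccccAGGTCAcggaagctaaac
Ucp3 (chr7:100472935-100472964, plus strand, 44 bases before the start): gaattaggtttcAGGTCAgctggtgcacag

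The seventh gene, Acacb, had its site within the first transcribed bases. Neither the direct repeat of AGGTCA with 1 base between the copies (0.0396% of all windows) nor TCAAGGTCA (0.423%), which contains the core motif, nor the E-box CACGTG (7.15%), which Myc binds, was in any of the 30 windows. GGGCGG was in the windows of 21 of the 30 (70.0%), against 35.7% of all windows. These are letter matches within short windows and say nothing of factor binding.

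Most genes of fatty acid oxidation were lower in OSKM-CMs. Of 38 tested, 25 fell, 4 rose and 9 did not pass, and the lower share of 65.8% stood beside 14.3% of all genes tested. The median log2 fold change was -0.99. The extremes were the thioesterase Acot1, 7.23-fold lower, and the acyl-CoA synthetase Acsl5, 4.19-fold higher. In 30 genes every OSKM library lay below both controls (78.9%, against 27.9% of all genes), and in 4 every OSKM library lay above. Groups without overlap in either direction made up 57.9% of all tested genes. The mitochondrial and peroxisomal genes differed in these counts. Of 29 mitochondrial and associated genes 22 fell and 3 rose (median -1.19), whereas of 9 peroxisomal genes 3 fell and 1 rose (median -0.28). These genes also differed in level, with control means of up to 749 scaled RPKM (Acaa2) and up to 91.4 (Scp2). The part of level in the difference between them was not tested. Leaving out 5 genes whose products are cytosolic, membrane-bound or shared by both organelles (Acot1, Acsl5, Acacb, Ech1 and Eci2) gave 18 of 24 mitochondrial genes lower and a median of -1.16.

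**Figure D1:**
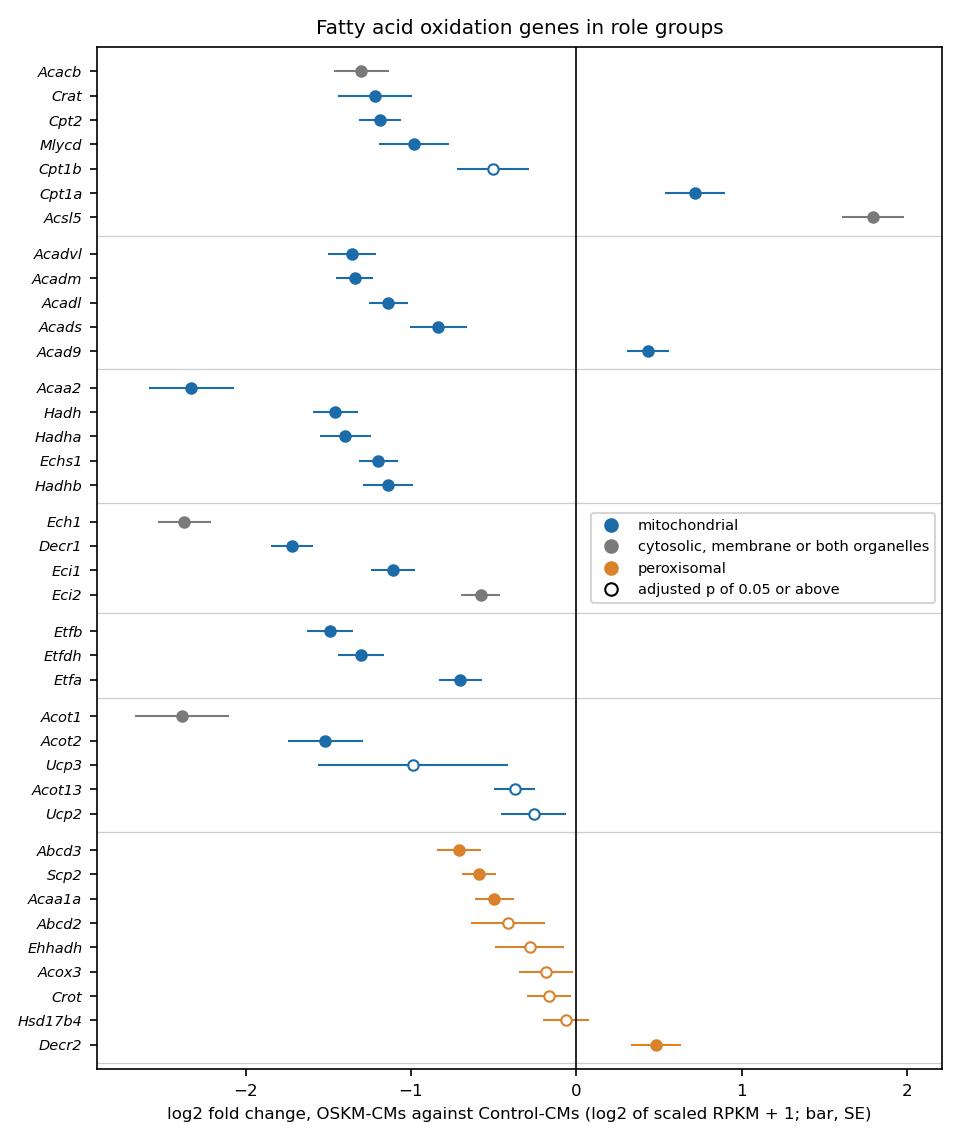
Log2 fold change of each gene in OSKM-CMs against Control-CMs (x axis, log2 of scaled RPKM plus 1; bars, SE), in role groups from the carnitine shuttle at the top to the peroxisome at the bottom, with open symbols for genes that did not pass. Mitochondrial genes lie mostly near the median of -1.19, Acsl5, Cpt1a, Acad9 and Decr2 lie above 0, and the peroxisomal genes lie between -0.71 and 0.48.

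The entry steps moved in both directions. Of 7 genes, 4 fell, 2 rose and 1 did not pass. Cpt2, the inner-membrane carnitine palmitoyltransferase that re-forms acyl-CoA in the matrix, had scaled RPKM of 41.3, 47.3 and 37.9 in the OSKM-CMs libraries (replicate 1, then 2, then 3). The Control-CMs libraries, replicate 3 and then 5, were at 96.8 and 97.2. All 3 OSKM libraries were far below both controls (log2 fold change -1.19, SE 0.13, limma adjusted p = 0.000698). Library values below follow the same order. Crat, carnitine acetyltransferase, which buffers acetyl-CoA, was at 41.6, 64.5 and 37.5 against 107 and 113 (log2 fold change -1.22, limma adjusted p = 0.00712), with OSKM-CMs replicate 2 nearest to the controls.

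Acacb makes the malonyl-CoA that inhibits Cpt1, and Mlycd breaks it down, and both fell. Acacb was at 17.4, 19.4 and 14.6 against 38.0 and 49.4 (-1.30, limma adjusted p = 0.00149). Mlycd was at 23.1, 26.5 and 16.2 against 39.0 and 48.6 (-0.98, limma adjusted p = 0.0122). The Mlycd call was lost without Control-CMs replicate 5 (-0.83, limma adjusted p = 0.0723).

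Acsl5, which activates long-chain fatty acids to acyl-CoA at the mitochondrial and reticular membranes, rose most. Its levels were 12.8, 14.7 and 19.4 against 3.66 and 3.79, with no overlap and a fold of mean levels of 4.19 (SE 0.19 on the log2 scale, limma adjusted p = 0.000614). Cpt1a, the carnitine palmitoyltransferase form abundant in liver and fetal heart, was at 23.4, 19.0 and 17.9 against 9.91 and 13.9, 1.69-fold higher (limma adjusted p = 0.0210). That call was lost without Control-CMs replicate 3 (0.50, limma adjusted p = 0.118) or without OSKM-CMs replicate 1 (0.61, limma adjusted p = 0.0701).

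Cpt1b, the muscle form, rested on 11, 8 and 5 reads against 15 and 16 and did not pass (limma adjusted p = 0.117). In the GENCODE M21 annotation, 81.4% of its exon bases also belong to Gm44502, a same-strand gene that RefSeq lists with the synonym Chkb-Cpt1b. How reads shared between genes were counted is not given in the sources used here, so the Cpt1b level is uncertain. Chkb, its upstream neighbour, had 100, 102 and 71 reads against 114 and 95.

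The acyl-CoA dehydrogenases start each cycle, and of the 5 genes 4 fell and 1 rose. In order of decreasing chain length, Acadvl had 39.2% of the control mean, Acadl 45.4%, Acadm 39.4% and Acads 55.7%. Acadm, the medium-chain enzyme, was at 192, 180.5 and 164 scaled RPKM against 448 and 460, with the OSKM libraries far below both controls (log2 fold change -1.34, SE 0.11, limma adjusted p = 0.000273). Acadvl, the very-long-chain enzyme, was at 102, 130 and 95.9 against 280 and 278 (-1.36, limma adjusted p = 0.000699). In M21, 42.9% of its exon bases lie opposite Dvl2, and whether counting used strand is not given in the sources used here.

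Acadl, the long-chain enzyme, was at 139, 154 and 130 against 294 and 327 (limma adjusted p = 0.000662). Acads, the short-chain enzyme, was at 48.9, 59.3 and 42.4 against 79.3 and 101 (limma adjusted p = 0.00972), a call lost without Control-CMs replicate 5 (-0.66, limma adjusted p = 0.0662) and with scaling by library totals alone (-0.42, limma adjusted p = 0.0595). Acad9, known also as an assembly factor of complex I, moved the other way. It was at 11.3, 11.2 and 11.6 against 8.20 and 8.13, a narrow and separate pair of ranges (1.39-fold, limma adjusted p = 0.0346). The Acad9 call was lost when any of the 5 libraries was left out (log2 fold change 0.42 to 0.44, limma adjusted p 0.0623 to 0.112).

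All 5 genes of the remaining steps of the matrix cycle fell, with a median log2 fold change of -1.40. Acaa2, the mitochondrial 3-ketoacyl-CoA thiolase that ends the cycle, was at 134, 214.5 and 114 against 747 and 751, and its mean in OSKM-CMs was 20.6% of control (-2.33, SE 0.26, limma adjusted p = 0.00143). The controls were nearly equal, and OSKM-CMs replicate 2 was the highest of its group. Hadha was at 124, 150 and 105 against 339 and 324, and Hadhb at 159, 204 and 150 against 364 and 386, with OSKM means of 38.2% and 45.6% of control. Hadh, the short-chain hydroxyacyl dehydrogenase, had 36.0% and Echs1, the short-chain enoyl hydratase, 43.0%. Hadh, Hadha, Hadhb and Echs1 passed with each library left out in turn, as did Acaa2.

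Unsaturated fatty acids need extra enzymes, and all 4 of these genes fell (median -1.42). Ech1, a dienoyl-CoA isomerase found in mitochondria and peroxisomes, was at 137, 176 and 122 against 708 and 784.5. Its OSKM mean was 19.4% of control, a 5.15-fold difference (log2 fold change -2.37, SE 0.16, limma adjusted p = 0.000122). Decr1, the mitochondrial dienoyl-CoA reductase, was at 41.9, 50.7 and 41.2 against 146 and 152 (-1.72, SE 0.13, limma adjusted p = 0.000189). The enoyl-CoA isomerases fell less: Eci1 had 46.3% of the control mean and Eci2 66.4%, and the Eci2 call was lost without Control-CMs replicate 5 (-0.53, limma adjusted p = 0.0589). With library totals alone as scaling, 3 of the 4 passed, and Eci2 did not (-0.17, limma adjusted p = 0.294).

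Electrons from the acyl-CoA dehydrogenases reach ubiquinone through Etfa and Etfb, the subunits of the electron transfer flavoprotein, and its dehydrogenase Etfdh. All 3 fell, by unequal amounts. Etfb was at 178, 228.5 and 179 against 524 and 571, or 35.6% of control, whereas its partner subunit Etfa was at 111, 119 and 96.1 against 165 and 189, or 61.4% (limma adjusted p = 0.000424 and 0.00656). Scaled by library totals alone, Etfa did not pass (log2 fold change -0.29, limma adjusted p = 0.0896). In M21, 53.0% of Etfb exon bases are shared with the same-strand gene Gm45233. Etfdh was at 49.1, 58.3 and 44.3 against 123 and 127.5 (-1.30, limma adjusted p = 0.000668).

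Among thioesterases and uncoupling proteins, 2 of 5 fell and 3 did not pass. Acot1, a cytosolic thioesterase that frees fatty acids from CoA, had 5, 14 and 9 reads against 57 and 78, and its mean level was 13.8% of control (1.93 ± 0.918 scaled RPKM, SD, n = 3, against 14.0 ± 3.17, n = 2; log2 fold change -2.39, limma adjusted p = 0.00122). Acot2, its close mitochondrial paralogue next to it on the chromosome, was at 16.7, 19.0 and 10.9 against 41.9 and 48.8 (-1.52, limma adjusted p = 0.00291). Reads of these similar genes may have been split between them.

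Acot13, a mitochondria-associated thioesterase, was at 256, 269 and 265 against 305 and 381 and did not pass (-0.37, limma adjusted p = 0.0579). The uncoupling protein Ucp3 varied most within groups, at 3.11, 9.52 and 4.27 against 6.37 and 19.0, and its groups overlapped (limma adjusted p = 0.255). It had 30, 93 and 41 reads against 62 and 183. Ucp2 was near 1 to 2 scaled RPKM throughout, from 1.02 to 1.84, and did not pass (limma adjusted p = 0.361). It rested on 22, 31 and 24 reads against 40 and 30. The order of levels was different in the groups. In controls Acaa2 and Ech1 were highest, at means of 749 ± 2.91 and 746 ± 54.3 (SD, n = 2), and could not be told apart within their spread. In OSKM-CMs Acot13 was highest at 263 ± 6.97 (SD, n = 3), followed by Etfb at a mean of 195 and Acadm at 179, whose libraries overlapped.

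**Figure D2:**
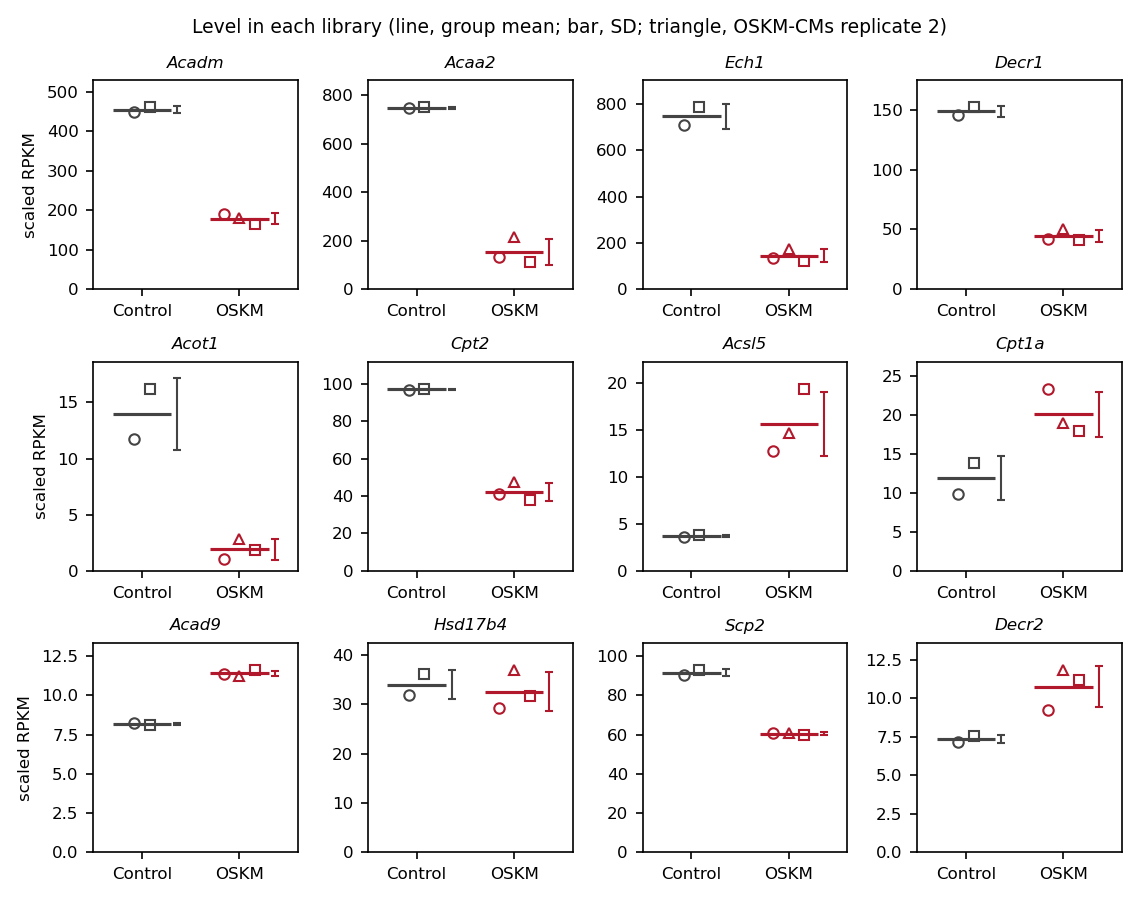
Scaled RPKM (y axis, from 0) of 12 genes in each of the 2 Control-CMs (circle, replicate 3; square, replicate 5) and 3 OSKM-CMs libraries (circle, triangle and square for replicates 1, 2 and 3), with group means and SD. Acadm, Acaa2, Ech1, Decr1, Acot1, Cpt2 and Scp2 are lower in all 3 OSKM libraries, Acsl5, Cpt1a, Acad9 and Decr2 are higher in all 3, and Hsd17b4 overlaps.

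The peroxisomal genes changed less by median log2 fold change. In 6 of the 9, though, every OSKM library lay below both controls (66.7%). That share was 82.8% for mitochondrial and associated genes and 27.9% for all tested genes. Hsd17b4, the D-bifunctional protein that carries out the hydration and second dehydrogenation for most peroxisomal substrates, was at 29.2, 36.9 and 31.7 against 31.9 and 36.1. Its groups overlapped, and the mean in OSKM-CMs was 95.9% of control (log2 fold change -0.06, SE 0.14, limma adjusted p = 0.767). Ehhadh, the L-bifunctional protein, was at 4.96, 3.41 and 4.12 against 4.27 and 6.36 and did not pass (limma adjusted p = 0.344). It rested on 46, 32 and 38 reads against 40 and 59. Acox3, an oxidase of branched and long chains, was at 2.49, 2.24 and 2.56 against 2.99 and 2.80 and did not pass (limma adjusted p = 0.430).

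Acaa1a, the peroxisomal thiolase, fell to 70.3% of control, with levels of 26.7, 28.5 and 25.0 against 38.0 and 38.2 (-0.50, limma adjusted p = 0.0165). The call was lost in 4 of the 5 fits with a library left out (limma adjusted p up to 0.0736). Scp2, whose products are a thiolase for branched chains and a sterol carrier, fell to 66.1%, at 60.9, 60.7 and 59.7 against 90.1 and 92.7 (-0.59, SE 0.10, limma adjusted p = 0.00510). Decr2, the peroxisomal dienoyl-CoA reductase, was the peroxisomal gene that rose. It was at 9.26, 11.8 and 11.2 against 7.19 and 7.54, 1.46-fold higher (limma adjusted p = 0.0442), from 51 to 84 reads per library. That call was lost with limma voom (limma adjusted p = 0.0702) and in 4 of the 5 fits with a library left out.

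Of the transporters, Abcd3, which imports branched and long-chain acyl-CoA, fell to 60.2% of control (19.5, 24.3 and 23.3 against 36.6 and 37.6, limma adjusted p = 0.00660). Abcd2 was read at 0.589 to 1.82 scaled RPKM, on 10, 16 and 17 reads against 19 and 31, and did not pass (limma adjusted p = 0.205). Crot, carnitine octanoyltransferase, which exports shortened acyl groups, was at 8.66, 9.85 and 9.24 against 10.8 and 10.2, 88.2% of control (limma adjusted p = 0.379).

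The peroxisomal direction depended on scaling. When libraries were scaled by their totals alone, the median log2 fold change over all tested genes was 0.36, and 42.5% of them were called, 5.96% lower and 36.5% higher. Under that scaling the mitochondrial and associated genes had 19 lower, 3 higher and a median of -0.78. The peroxisomal genes then had 0 lower and 1 higher, Decr2, with a median of 0.06, and Hsd17b4, Crot, Acox3 and Ehhadh changed sign. At an unadjusted limma p below 0.05, 0 peroxisomal genes were lower and 2 higher under that scaling, while limma voom with composition factors called 3 lower and 0 higher (1 at an unadjusted p).

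Ratios within a library do not depend on scaling. The summed level of the 29 mitochondrial and associated genes was 2093, 2485 and 1932 scaled RPKM against 5376 and 5790, and that of the 9 peroxisomal genes was 162, 179 and 168 against 223 and 233. The peroxisomal sum was thus 7.76%, 7.19% and 8.68% of the mitochondrial sum in OSKM-CMs and 4.15% and 4.03% in controls. The OSKM libraries all lay above the controls, a result for these 9 and 29 genes only. The further genes listed below went the other way, with the peroxisomal sum falling more in proportion than the mitochondrial one. The 16 peroxisomal ones summed to 403, 408 and 384 against 682 and 708. The 23 listed as mitochondrial summed to 581, 641 and 566 against 756 and 792. Of 8 enzyme pairs compared as ratios, 5 set a peroxisomal enzyme over a mitochondrial one, of a like step except for Crot over Cpt2. Both of these are carnitine acyltransferases, but Crot serves export and Cpt2 re-forms acyl-CoA in the matrix. With 2 against 3 libraries the smallest exact permutation p is 0.10, so no pair could pass, and p-values adjusted over the pairs (Benjamini-Hochberg) were from 0.16 to 0.6.

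**Figure D3:**
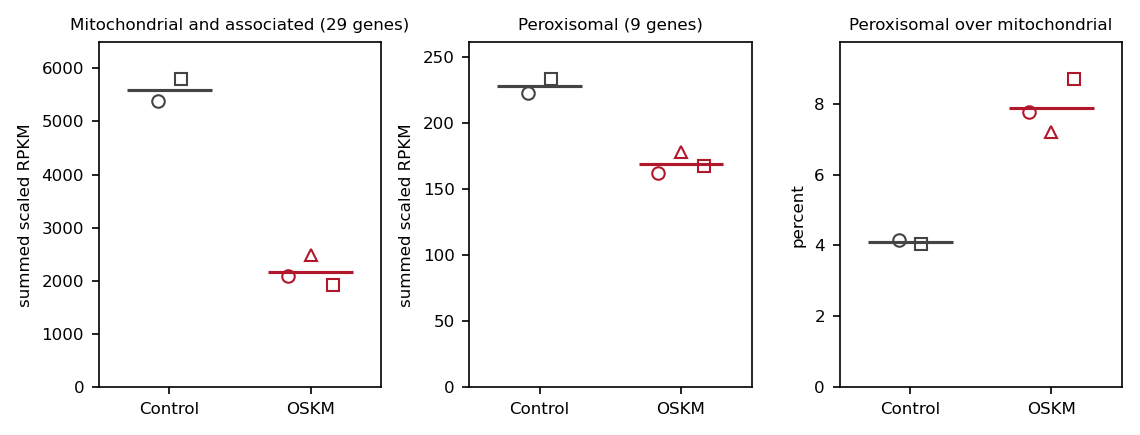
Summed scaled RPKM of 29 mitochondrial and associated genes (left) and 9 peroxisomal genes (middle), and the second as a percent of the first (right), per library, with lines at the group means; all axes start at 0. Both sums are lower in OSKM-CMs, to 38.9% and 74.3% of the control means, and the percent is higher in all 3 OSKM libraries. Without the 5 genes of mixed place (not drawn) the mitochondrial sum was 41.4% of the control mean. Sums are weighted to abundant genes.

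The reductase pair Decr2 over Decr1 differed most. Its ratio was 0.221, 0.233 and 0.271 in OSKM-CMs and 0.0494 and 0.0497 in controls, 4.86-fold higher (2-sided exact permutation p = 0.10). The thiolase pair Acaa1a over Acaa2 was at 0.200, 0.133 and 0.220 against 0.0509 and 0.0508, 3.55-fold higher (exact permutation p = 0.10). Ratios for Crot over Cpt2, Ehhadh over Hadha and Acox3 over Acadl were 2.04-fold, 2.09-fold and 1.85-fold higher (exact permutation p = 0.10, 0.20 and 0.10). In all 5 pairs the OSKM libraries lay above both controls. The mitochondrial enzyme of each pair was itself called lower, so the ratios partly restate those falls. Among single genes, groups without overlap in either direction made up 57.9% of all tested. Among paralogues, Acot2 over Acot1 was at 16.1, 6.61 and 5.77 against 3.57 and 3.01 (exact permutation p = 0.20). Cpt1a over Cpt1b was 3.46-fold higher (exact permutation p = 0.10) on the uncertain Cpt1b reads, and Ucp2 over Ucp3 overlapped (exact permutation p = 0.60).

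**Figure D4:**
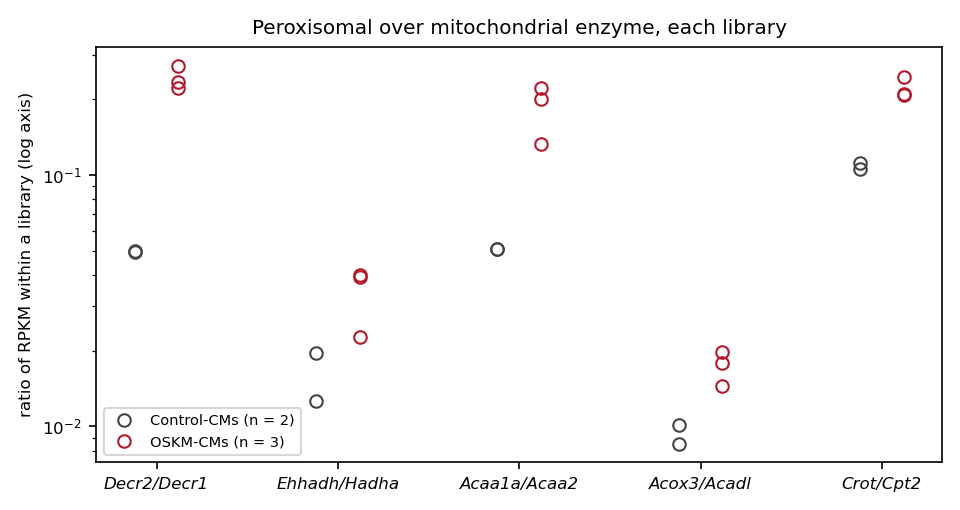
Ratio of RPKM of a peroxisomal enzyme over a mitochondrial enzyme within each library (y axis, log scale), for 2 Control-CMs and 3 OSKM-CMs libraries. The enzymes of a pair serve a like step, except Crot and Cpt2, which are both carnitine acyltransferases. In each of the 5 pairs all OSKM libraries lie above both controls, most widely for Decr2 over Decr1. The mitochondrial enzyme of each pair was itself called lower.

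Other genes of the pathway, listed by role, moved less uniformly than the 38. Of 23 tested further genes listed under mitochondrial acyl-CoA metabolism, 8 fell, 4 rose and 11 did not pass (median -0.28). That list is wider than mitochondrial oxidation and includes Acaca, of fatty acid synthesis. Acsl1, the main long-chain acyl-CoA synthetase of the heart, fell by 1.06 on the log2 scale, from 136 and 135 in controls to 66.9, 74.8 and 53.7, the opposite direction to Acsl5. Slc22a5, the plasma membrane carnitine transporter, fell by 1.11. Acot9, a mitochondrial thioesterase, rose from 12.7 and 14.4 to 68.1, 69.1 and 78.4 (log2 fold change 2.33, limma adjusted p = 5.18e-05). Acaca, the acetyl-CoA carboxylase of fatty acid synthesis, rose by 0.70 (limma adjusted p = 0.0193), a call lost in 4 of the 5 fits with a library left out (limma adjusted p 0.0634 to 0.0688).

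Of 16 tested further genes of peroxisomal lipid metabolism, 5 fell, 2 rose and 9 did not pass (median -0.15). Phyh, which starts the alpha-oxidation of phytanic acid, fell from 327 and 344 to 104, 128.5 and 117 (log2 fold change -1.52, limma adjusted p = 0.000237), more than any of the 9 peroxisomal genes above. Gnpat, of ether lipid synthesis, fell by 1.09 and Far1, of the same route, rose by 0.97. Acot6, a thioesterase, rose by 0.73 from about 1 scaled RPKM (limma adjusted p = 0.0468). The Acot6 call was lost with limma voom (limma adjusted p = 0.0634), with a pseudocount of 5 (0.0560) and in 4 of the 5 fits with a library left out (0.0878 to 0.157). Of 14 peroxisome biogenesis genes, 2 fell (Pex6, log2 fold change -0.87, and Pex19, -0.77), 0 rose and 12 did not pass (median -0.16). The share lower was that of all tested genes, 14.3%. The Pex6 call was lost without Control-CMs replicate 5 (limma adjusted p = 0.0600). At an unadjusted limma p, 0 were higher there and with limma voom. Scaled by library totals, 0 of the 14 passed in limma and 1 was lower at an unadjusted p.

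Regulators and targets were lower in part. Of 16 tested genes of PPAR and ERR regulation, 8 fell and 0 rose (median -0.59), among them Lpin1, a coactivator and phosphatidate phosphatase (-1.44), and Ppara (-1.41, 5.01, 7.29 and 3.16 against 16.1 and 13.6). The Ppara call was lost without Control-CMs replicate 3 (limma adjusted p = 0.0543). At an unadjusted p below 0.05, limma and limma voom put 12 lower and 0 higher. Of 11 tested PPAR target genes outside the 38, 6 fell and 0 rose (median -0.57), and 0 were higher at an unadjusted limma p. The falls were led by the fatty acid transporter Slc27a1 (-1.79) and the lipid droplet protein Plin5 (-1.48), whose call was lost without Control-CMs replicate 5 (limma adjusted p = 0.0645). Of 10 genes of malonyl-CoA and AMPK control, 3 rose and 2 fell (median 0.26). Acaca, 1 of these 3, was also counted among the 23 further genes of acyl-CoA metabolism above. Fasn, fatty acid synthase, rose from 3.15 and 2.08 to 9.97, 9.51 and 11.0 (1.64, limma adjusted p = 0.000668). Prkag2, an AMPK gamma subunit, rose by 1.16, whereas Prkab1, a beta subunit, fell by 0.80 and Prkag1, a gamma subunit, fell by 0.44. The Prkag1 call was lost with limma voom (limma adjusted p = 0.0661), without trend and robust options (0.0532) and with any of the 5 libraries left out (0.0508 to 0.184). Scaling by library totals changed these splits: of the 10 genes 7 were then higher and 0 lower (1 at an unadjusted limma p), of the 16 regulators 1 was higher and 5 lower, and of the 11 targets 1 was higher and 4 lower. Of the 23 further genes of acyl-CoA metabolism 6 were then higher and 4 lower, and of the 16 further peroxisomal genes 7 higher and 2 lower.

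Summed markers of several cell types differed between the groups, whereas those of macrophages overlapped. Among all tested genes 15.9% were called higher and 14.3% lower. Of 8 cardiomyocyte markers, 7 fell and 0 rose, and their summed level was 16286 to 19826 scaled RPKM in OSKM-CMs and 30135 to 32933 in controls. Actc1, cardiac actin, did not pass (5281, 7433 and 6651 against 6265 and 6220). Fibroblast markers summed to 92.0 to 206.5 in OSKM-CMs and 37.9 to 74.9 in controls, with 4 of 8 higher. Smooth muscle and pericyte markers summed to 238 to 380 against 131 to 138, with 3 of 7 higher. Endothelial markers summed to 93.1 to 204 against 282 to 320, with 2 of 9 lower. Macrophage markers summed to 6.26 to 22.4 against 9.48 to 38.0, with 0 of 4 called by limma or limma voom, also at an unadjusted p. Of 8 adipocyte markers 7, Adipoq and Plin1 among them, had no row and were not analysed here. Cidea, which heart also expresses, was at 25.7 or more in every OSKM library against 16.4 and 22.4. It was called higher by limma (log2 fold change 0.52), but with limma voom only at an unadjusted p below 0.05. The part of these shifts in the fall of fatty acid oxidation genes was not tested.

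OSKM-CMs replicate 2 was the highest of its group for 28 of the 38 genes, and for 23 of the 29 mitochondrial and associated genes. Among all genes called lower it was highest for 56.5%, and among all tested genes for 35.7%. The same library had the highest summed cardiomyocyte markers and the lowest fibroblast and endothelial markers of the 3, but also the highest smooth muscle and pericyte markers (380 against 238 and 301). The part of these in its position was not tested. Without it, 25 of the 38 genes were lower and 2 higher, and the median of mitochondrial and associated genes was -1.27.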

How the data were processed

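RNA of 5 cardiomyocyte libraries was analysed from the authors' table of 12446 genes. Per the submitters' processing notes the tools named, with no role stated, were STAR 2.5.3, HTSeq, Trimmomatic, FastQC and CASAVA 1.8.2, and the build was mm9; annotation, strand setting and comparison tool are not given in the sources used here. Library values were taken as the authors' RPKM from the values themselves, since the file headers name no unit. Per the file headers the authors' table further holds log2 values (fold change and average CPM), a likelihood-ratio score and a p-value with its FDR. All listed genes reached 1 CPM in 2 or more libraries, and lower genes were not analysed here.

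RPKM values were whole multiples of a step per gene, and whole reads were recovered for 12446 genes (100%, within 0.0001 reads), with sums within 11 reads of the recovered library totals. Composition factors (trimmed mean of M values, trimming 30% of log ratios and 5% of abundances) were computed from these reads, and RPKM was divided by them. The 10915 genes whose mean RPKM was 1 or more were tested with limma 3.58.1 in R 4.3.3 on log2 of scaled RPKM plus 1, (trend and robust options, 2-sided), with Benjamini-Hochberg adjustment at 0.05. All 38 genes passed that filter. Ratios were tested by exact permutation. The procedures were tested on simulated data. Alternatives were other pseudocounts, filters and scaling, limma voom on the recovered reads, no trend, and each library left out. For some genes at low levels the depth behind a value is given as reads. A value of 0 reads in a library allows up to 3 reads, or 0.777 to 1.11 CPM, for counting error only.

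The 38 genes, role groups and lists were chosen with earlier results of these data known. All of the 38 are reported; from other lists at most the 2 largest rises and 2 largest falls past the threshold are named. Actc1, Chkb and Pou5f1 were added after their values were seen.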

Additional observations from a re-analysis of the deposited data

How the results depend on the processing

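No paired analysis was made, because the labels give no date, batch or animal shared between OSKM-CMs and Control-CMs. Scaling had the most effect. With library totals alone, 3985 genes were higher and 650 lower, 0 peroxisomal genes were lower, and 0 peroxisome biogenesis genes passed. The median log2 fold change was then -0.60 for all 38 genes, -0.78 for mitochondrial and associated genes, -0.75 without the 5 of mixed place and 0.064 for peroxisomal genes. By role it was -0.58 for carnitine shuttle and entry, -0.72 for acyl-CoA dehydrogenases, -0.98 for the later matrix steps, -0.999 for unsaturated fatty acid enzymes and -0.89 for electron transfer. The log2 fold changes that turned positive were 0.047 for Acot13, 0.12 for Acox3, 0.064 for Ehhadh, 0.34 for Hsd17b4 and 0.22 for Crot. Of the 38 genes 27 kept direction and side of the threshold under that scaling, and 6 lost their call (Acads, Eci2, Etfa, Acaa1a, Scp2 and Abcd3). The median of the 38 was -0.83 with a pseudocount of 5 and -1.14 with a mean RPKM of at least 5, where fewer genes were tested. With limma voom, or without trend and robust options, 0 peroxisomal genes were higher.

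Leaving out each library in turn gave 1153 to 1575 higher and 957 to 1492 lower genes. Among the 38 genes 1 to 2 were higher and 21 to 25 lower, with a median of -1.18 to -0.84. Mitochondrial and associated genes had 1 to 2 higher, and peroxisomal genes 0 to 1 higher with a median of -0.50 to -0.21. The median of thioesterases and uncoupling proteins was -1.63 to -0.38. Of acyl-CoA dehydrogenases 3 to 4 passed, of other peroxisomal lipid genes 4 to 6, of peroxisome biogenesis genes 1 to 2, and of malonyl-CoA and AMPK genes 3 to 4. The log2 fold change of Hsd17b4 was -0.15 to 0.025 over these, above 0 without OSKM-CMs replicate 1 (0.01) and without Control-CMs replicate 5. The log2 difference of Ucp2 over Ucp3 was -0.30, without Control-CMs replicate 5, to 1.67. The causes were not tested. With a control left out, the lone control is assumed to vary like the OSKM libraries.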

Other observations

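In the authors' deposited table, 26 of the 38 genes were lower and 3 higher at an FDR below 0.05, where 15.4% and 16.4% of the 12446 listed genes were. The authors' deposited table differed from the calls here for Acot13, lower there (log2 fold change -0.39, FDR 0.0399), and for Decr2, not called there (0.53, FDR 0.103).

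Across the 29 mitochondrial and associated genes, those with higher control levels had more negative log2 fold changes (Spearman's rho -0.55, Pearson's r -0.60 with log2 level). These are values across genes of the same 5 libraries, the control level enters both measures, and the added 1 shrinks changes of low genes, so the relation is a description only.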
